A study of Mus musculus with 36 samples.

Results

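Cadherins and protocadherins are adhesion proteins of the cell surface, and their genes were examined as possible locations of PAX6 binding in enteric precursor cells (EPCs), the neural crest-derived cells that build the enteric nervous system. The members are the protein-coding genes of the GENCODE M1 annotation of the mouse build mm9 whose symbol is Cdh followed by a number, or begins with Pcdh. They numbered 59 of 22350 protein-coding genes on chromosomes 1 to 19 and X. The 24 annotated records of the clustered Pcdha, Pcdhb and Pcdhg genes were counted as 1 locus, which left 36 loci. A peak was assigned to a locus when its centre lay in the gene body or within 100 kb of it. The rule uses gene symbols and positions alone, although it was set with earlier results of these data known.

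The study profiled PAX6 by chromatin immunoprecipitation and sequencing (ChIP-seq) in EPCs that were grown as neurosphere-like bodies (NLBs), cell aggregates cultured from ganglionic gut tissue that was taken from CD-1 mice at the age of 7 days. Chromatin was precipitated with an antibody to PAX6 in 16 libraries, sequenced in 3 pools of 4, 6 and 6 libraries, and with mouse IgG as negative control in 4 libraries, all of them labelled as pool 1. Another 16 libraries (4, 6 and 6 in the 3 pools) held input chromatin without precipitation. The cells of every group came from the same kind of culture, no genetic change or treatment is named in the labels, and the NLBs are a mixed primary culture and not a sorted cell type. The authors merged the libraries of each pool before calling peaks, so the spread between libraries is unknown, and each pool is represented by 1 list of peaks.

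Classical cadherins join neighbouring cells through calcium-dependent binding of their outer domains and are anchored inside the cell to catenins, which link them to actin. Type I members such as E-cadherin (Cdh1) and N-cadherin (Cdh2) and type II members such as Cdh6 and Cdh11 differ in their binding specificity, and changes between them accompany the departure of neural crest cells from the neural tube. Protocadherins lack the catenin-binding tail, and the clustered ones give single neurons different surface identities. Enteric crest cells migrate through the gut in chains that depend on N-cadherin contacts, and R-cadherin (Cdh4) is known for its loss in the forebrain of Pax6 mutant mice.

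The mm9 sequence around the peak centre shows what kind of DNA was called at these genes. The peak with the best score rank at a member locus is given for PAX6 pools 1 and 2. Those of pool 3 (Cdh13) and IgG (Pcdh15) are not shown, and neither window held an uninterrupted CA or TG run of at least 20 bp. Short CA or TG runs of at least 6 bp still covered 52.0% of the Cdh13 window and 34.7% of the IgG window at Pcdh15. The whole IgG peak at Pcdh15 held a run of 26 bp. A peak in an intron of Cdh4 and 1 of the IgG peaks upstream of Cdh6 were added after their values were seen. They show repeats at the gene with a known link to PAX6 and the same kind of sequence under IgG. The pool 2 peak assigned to Cdh16 was added in the same way, as a peak without a CA or TG repeat. Each window is 300 bp on the plus strand, from 5′ to 3′, and capitals mark its longest uninterrupted run of alternating C and A or T and G.
Cdh20, PAX6 pool 1, chr1:106573332-106573631: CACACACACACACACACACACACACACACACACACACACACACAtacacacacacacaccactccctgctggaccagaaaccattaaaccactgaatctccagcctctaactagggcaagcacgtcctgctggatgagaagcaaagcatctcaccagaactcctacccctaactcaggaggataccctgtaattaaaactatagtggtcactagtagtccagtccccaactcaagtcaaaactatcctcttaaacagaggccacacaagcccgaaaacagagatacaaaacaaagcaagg
Pcdh15, PAX6 pool 2, chr10:73955534-73955833: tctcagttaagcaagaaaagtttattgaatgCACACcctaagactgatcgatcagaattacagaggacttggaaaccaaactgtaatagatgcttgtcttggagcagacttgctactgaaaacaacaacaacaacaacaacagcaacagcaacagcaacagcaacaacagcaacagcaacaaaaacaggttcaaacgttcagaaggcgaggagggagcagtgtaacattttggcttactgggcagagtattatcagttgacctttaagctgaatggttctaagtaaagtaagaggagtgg
Cdh4, PAX6 pool 3, chr2:179424144-179424443: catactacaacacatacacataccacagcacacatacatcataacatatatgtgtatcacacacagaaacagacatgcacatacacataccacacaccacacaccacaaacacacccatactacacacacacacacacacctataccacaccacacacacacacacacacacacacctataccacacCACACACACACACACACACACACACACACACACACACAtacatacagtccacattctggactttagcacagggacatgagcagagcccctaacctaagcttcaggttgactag
Cdh6, IgG, chr15:13123948-13124247: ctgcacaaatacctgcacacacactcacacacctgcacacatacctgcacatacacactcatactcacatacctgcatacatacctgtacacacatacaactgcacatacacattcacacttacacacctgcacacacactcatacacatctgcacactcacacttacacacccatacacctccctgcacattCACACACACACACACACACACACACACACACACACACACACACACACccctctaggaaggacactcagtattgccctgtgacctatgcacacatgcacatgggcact
Cdh16, PAX6 pool 2, chr8:107033677-107033976: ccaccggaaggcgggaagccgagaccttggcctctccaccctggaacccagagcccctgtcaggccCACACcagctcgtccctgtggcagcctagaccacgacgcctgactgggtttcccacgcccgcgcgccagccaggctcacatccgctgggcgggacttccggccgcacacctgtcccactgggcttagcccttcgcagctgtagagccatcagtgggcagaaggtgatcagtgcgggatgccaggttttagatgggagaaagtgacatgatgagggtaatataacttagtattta

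CA repeats fill much of the window at Cdh4, and they do the same in the IgG window at Cdh6. At Cdh4 the longest uninterrupted run was 38 bp, and short runs of at least 6 bp covered 38.3% of the window. The other PAX6 peak of Cdh4, which is not shown and ranked better, had a longest run of 15 bp and a covered part of 29.7%. The run at Cdh20 was 44 bp, and the rest of that window holds little of the repeat. The best ranked peak of Pcdh15 and the peak assigned to Cdh16 held no CA or TG run over 5 bp, and the latter had a GC content of 61.3%. The Pcdh15 window holds a stretch of CAA and CAG triplets, a simple repeat that the search for CA or TG runs does not count. Under IgG the run at Cdh6 was 47 bp and the covered part 36.3%.

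PAX6 peaks were found at the cadherin and protocadherin loci in every pool, in numbers close to those that the length of the loci would give. Pool 1 had 4, pool 2 had 6 and pool 3 had 6, which makes 16 of the 2219 PAX6 peaks on chromosomes 1 to 19 and X. The IgG list had 4 of 1006. These loci are long. Their median body was 114.7 kb against 15.4 kb for all protein-coding genes, with a range from 4.53 kb at Pcdh8 to 1550.4 kb at Pcdh15. Their windows, bodies with 100 kb on each side, covered 17.0 Mb or 0.665% of the 2555.8 Mb of sequenced bases. Uniform placement of every peak centre on its own chromosome gives 15 PAX6 peaks in these windows, so that the observed number was 1.07 times the expected one (exact Poisson 95% interval 0.610 to 1.73).

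The ratio was 1.21 in pool 1 (4 against 3.31 expected, 0.329 to 3.09), 0.934 in pool 2 (6 against 6.42, 0.343 to 2.03) and 1.14 in pool 3 (6 against 5.27, 0.418 to 2.48). For IgG it was 0.540 (4 against 7.40, 0.147 to 1.38). All of these intervals include 1, and they cover counting error only. Inside the gene bodies alone the 3 pools had 9 peaks against 9.0 expected, with 0 in pool 1 (1.99 expected), 5 in pool 2 (3.81) and 4 in pool 3 (3.20), and IgG had 1 (4.51). The expected numbers take sequenced bases as equally reachable and make no allowance for mappability.

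**Figure D1:**
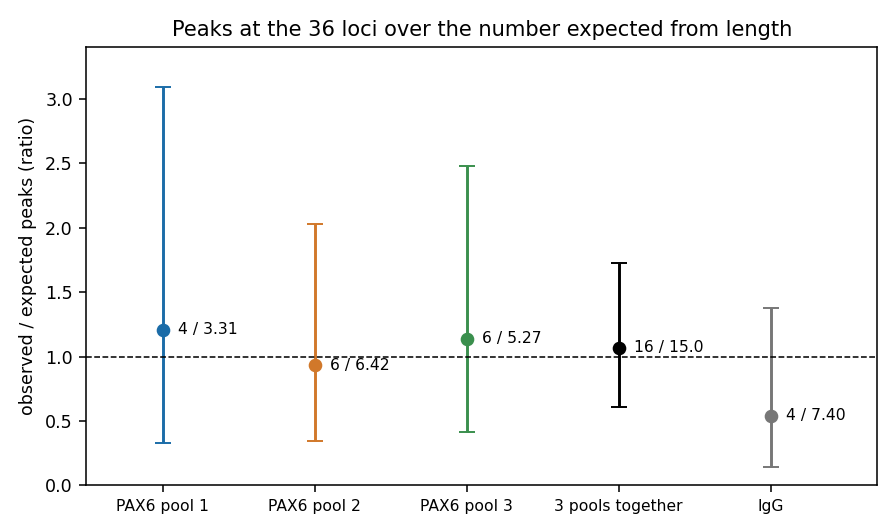
Peaks at the 36 cadherin and protocadherin loci divided by the number expected from window length (vertical axis, ratio) for each list and for the 3 pools together. Points are ratios with observed and expected counts beside them, bars are exact Poisson 95% intervals, and every bar crosses the dashed line at 1.

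As a share of the list, member loci held 0.818% of the peaks in pool 1 (exact binomial 95% interval 0.223 to 2.08), 0.589% in pool 2 (0.217 to 1.28), 0.843% in pool 3 (0.310 to 1.83) and 0.398% for IgG (0.108 to 1.01). The share of the 3 pools together, 0.721% (0.413 to 1.17), exceeded that of IgG by 0.323 percentage points (odds ratio 1.82, 95% interval 0.585 to 7.50, Fisher's exact test, two-sided, p = 0.340). By pool the differences were 0.420 points in pool 1 (odds ratio 2.06, 0.383 to 11.1, adjusted p = 0.675, Fisher's exact test with Benjamini-Hochberg adjustment over the 3 pools). They were 0.192 points in pool 2 (odds ratio 1.48, 0.351 to 7.18, adjusted p = 0.753 in the same exact test) and 0.445 points in pool 3 (2.13, 0.503 to 10.3, adjusted p = 0.675). The test takes peaks as units and does not cover the spread between libraries. It counts peaks of the same locus as independent. Of the 4 IgG peaks, 2 lie side by side at Cdh6, and of the 16 PAX6 peaks, 4 lie at Pcdh15. PAX6 and IgG were thus not told apart at these loci. The intervals leave room for a share several times higher under PAX6, and also for a lower one, with an odds ratio down to 0.351 in pool 2. Between pools the adjusted p was 1.00 in each of 3 comparisons.

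Counted by locus, 10 of 36 had a PAX6 peak (27.8%), against 17.5% of all protein-coding genes, which are shorter, and 11.2 loci expected from window length. Pool 1 reached 4 loci (11.1%, background 4.25%, 3.13 loci expected), pool 2 reached 3 (8.33%, background 8.08%, 5.67 expected) and pool 3 reached 5 (13.9%, background 6.84%, 4.71 expected). IgG reached 3 loci (8.33%, background 8.63%, 6.35 expected). Among loci with a body of at least 100 kb, 8 of 19 had a PAX6 peak (42.1%), against 31.1% of the 2399 protein-coding genes of at least 100 kb. An IgG peak lay at 3 of the 19 (15.8%), against 16.3%. This length class was chosen after the data were seen. It has no upper limit, and member bodies reach 1550.4 kb, so the genes are not matched for length. No number expected from length is given for the 19 loci, and no excess is read from these shares. Peaks of at least 2 pools lay at 2 loci, Cdh22 and Cdh16 (5.56%, background 1.56% over genes of all lengths).

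**Figure D2:**
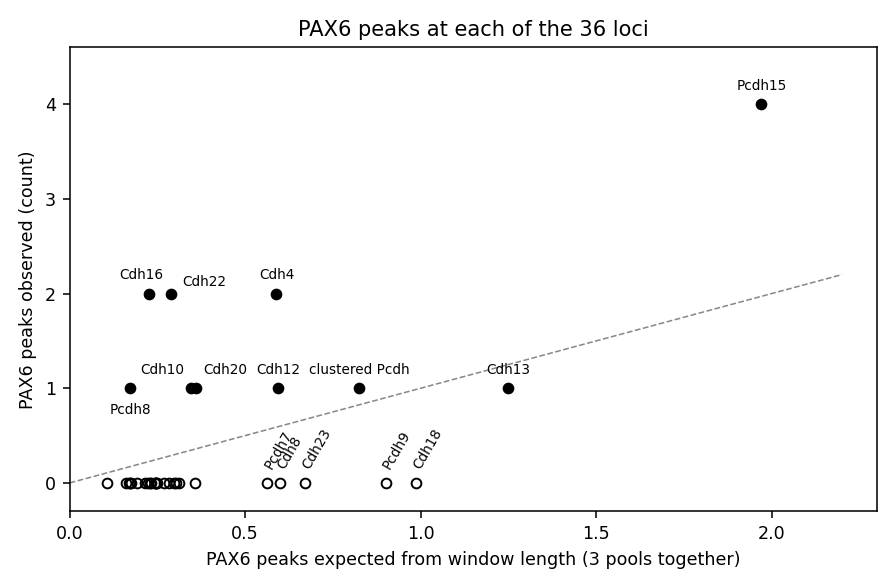
PAX6 peaks observed at each of the 36 loci (vertical axis, count over the 3 pools) against the number expected from window length (horizontal axis). Filled points are the 10 loci with a peak, open points the 26 without, and the dashed line marks equality; Pcdh15 has 4 peaks against 1.97 expected.

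None of the 16 PAX6 peaks lay at the start of a cadherin or protocadherin gene. Their distance to the nearest annotated start site of the member was at least 17.4 kb, so 0 of 16 fell within 10 kb. The 9 peaks inside gene bodies were all in introns, 5 lay upstream of the body and 2 downstream. For 12 of the 16 the nearest protein-coding start site belonged to the member itself, while the other 4 lay nearer to another gene. Shares of all PAX6 peaks near a coding start or in introns are not given here. These positions are therefore not read as a trait of these loci. No region carried peaks of more than 1 list. The share of all PAX6 peaks that lie in regions of more than 1 list is not given here. The shortest distance between member peaks of different lists was 12.3 kb, in Pcdh15 between pool 2 and IgG, and 0 of 16 PAX6 peaks overlapped an IgG peak (limit of a count of 0, 18.8%). Of all 2219 PAX6 peaks on chromosomes 1 to 19 and X, 82 overlapped an IgG peak. At that share, 16 peaks are too few to set these loci apart. The study states that overlapping IgG peaks were removed in its analysis, but these 82 are still in the lists used here. The lists do not show whether part of that removal had already been made. Nearest to the distance limit on the inside were Cdh16 in pool 2, at 92.0 kb from the body, and Cdh20 in pool 1, at 91.6 kb. On the outside, the nearest PAX6 peaks lay 127.8 kb from Cdh5, 131.2 kb from Cdh26 and 146.4 kb from Pcdh10.

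**Figure D3:**
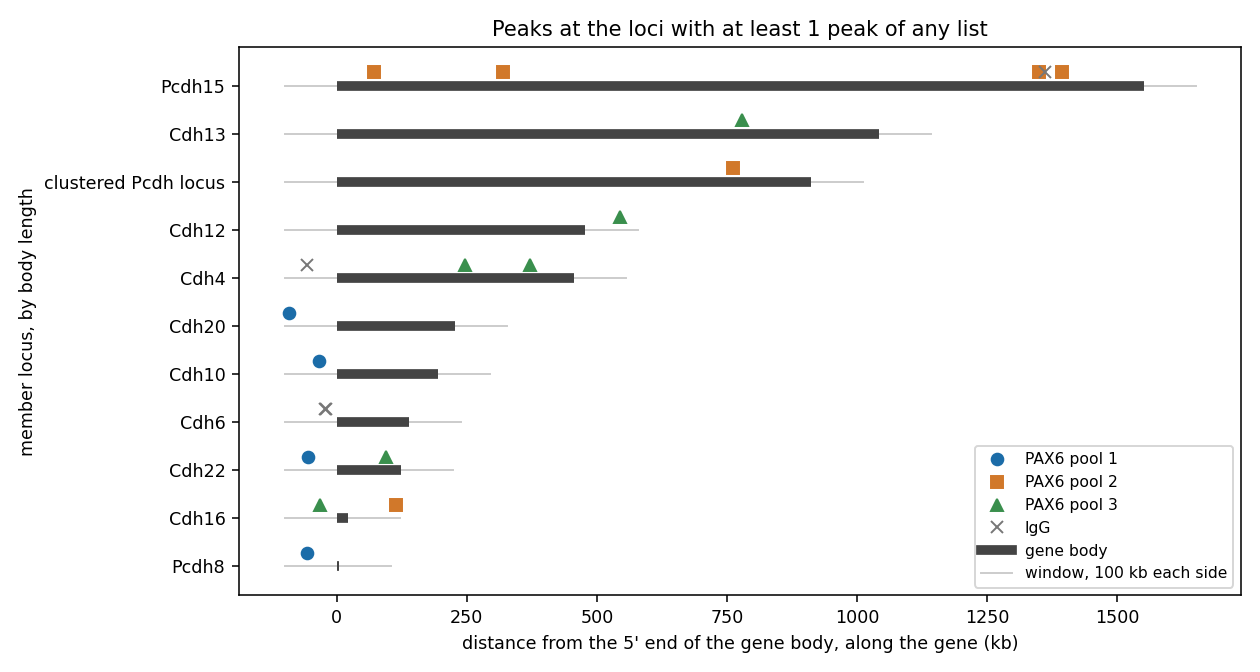
Peaks (symbols, by list) along the 11 loci with a peak of any list, as distance in kb from the 5′ end of the gene body in the direction of transcription (horizontal axis), with loci ordered by body length (vertical axis). Thick bars are gene bodies and thin lines the windows of 100 kb on each side; 9 PAX6 peaks lie in gene bodies and 7 beside them, and none lies within 10 kb of a start site of its gene.

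Among the 5 classical type I cadherins, only Cdh4 had PAX6 peaks, 2 against 1.49 expected for the group. Cdh4 encodes R-cadherin, the retinal cadherin of neural tissue, and lies on the plus strand of chr2:179177136-179634078. Both peaks came from pool 3. The peak at chr2:179424154-179424433 had a score of 106.97 (rank 340 of 724), and the peak at chr2:179547673-179548058 a score of 117.60 (rank 236). The score is the p-value of the peak caller MACS as deposited by the authors, on a scale of minus 10 times its log10, and it depends on depth, so ranks are given within a list. They stood at 54.1% and 81.1% of the body, both in introns. Pools 1 and 2 had no peak there, and IgG had 1 upstream, 57.4 kb from the body, with a score of 82.57 (rank 156 of 1007). Length alone gives 0.589 PAX6 peaks at Cdh4.

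The other type I genes had no PAX6 peak within 100 kb. The nearest one lay 555.6 kb from Cdh1, which encodes the E-cadherin of epithelia, and 233.8 kb from Cdh2, which encodes the N-cadherin of neurons and migrating crest cells. The nearest IgG peak lay 240.9 kb from Cdh2. Cdh3 (P-cadherin) and Cdh15 (M-cadherin) had none either.

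Of the 13 type II cadherins, 4 had PAX6 peaks, 5 in all against 5.04 expected, with 3 in pool 1, 0 in pool 2 and 2 in pool 3. Cdh22, a cadherin of brain and pituitary, was the only locus of this group with peaks of 2 pools. The pool 1 peak at chr2:165116125-165116689 had a score of 69.49 (rank 107 of 491) and lay 56.1 kb upstream, inside the neighbouring gene Elmo2 and 3.04 kb from the start of Slc35c2. The pool 3 peak at chr2:164964707-164965020 had a score of 51.08 (rank 715 of 724) and lay in an intron of Cdh22. They were 151.5 kb apart, and length gives 0.290 peaks at this locus.

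Cdh20 held the best ranked member peak of pool 1, with a score of 74.57 (rank 89 of 491) at chr1:106573184-106573778. Its start was the nearest coding start to that peak. Cdh10 had a pool 1 peak 34.2 kb upstream with a score of 58.03 (rank 334), and Cdh12 a pool 3 peak 67.0 kb downstream with a score of 57.25 (rank 650 of 724). Cdh10 and Cdh12 are type II cadherins of the brain.

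Cdh6, a type II cadherin of neural crest and kidney, was called under IgG and not under PAX6. The IgG peaks lay at chr15:13123892-13124302 with a score of 65.69 (rank 499 of 1007) and at chr15:13124807-13125236 with a score of 54.60 (rank 886), 20.7 and 21.6 kb upstream. They lie side by side and cannot be taken as independent. The nearest PAX6 peak was 401.8 kb from the gene. Cdh5, the vascular endothelial cadherin, had its nearest PAX6 peak at 127.8 kb, Cdh11, a cadherin of mesenchyme and cranial crest, at 456.1 kb, and Cdh19, known from the Schwann cell lineage, at 1275.9 kb.

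The 5 other Cdh genes, which differ from the classical ones in their anchor or number of repeats, had 3 PAX6 peaks against 2.59 expected. Cdh13 encodes T-cadherin, which is tied to the membrane by a lipid anchor and has no cytoplasmic tail. Its peak at chr8:121586136-121587132 was the best ranked member peak of pool 3, with a score of 208.25 (rank 41 of 724), and lay in an intron at 74.8% of a body of 1041.2 kb. Pools 1 and 2 and IgG had no peak there, and length gives 1.25 PAX6 peaks.

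Cdh16, a kidney cadherin with a body of 22.5 kb, had a peak of pool 2 and a peak of pool 3, against 0.225 expected, but neither was close to it. The pool 2 peak at chr8:107033675-107033977 had a score of 84.05 (rank 212 of 1032) and lay 92.0 kb downstream, with its centre 16 bp from the start of Ccdc79. The pool 3 peak at chr8:107180123-107180446 had a score of 52.16 (rank 701 of 724) and lay 32.0 kb upstream, nearer to the start of Fam96b at 14.4 kb. The remaining genes of this group, Cdh17, Cdh23 and Cdh26, had no peak of any list.

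The 12 non-clustered protocadherins had 5 PAX6 peaks against 5.06 expected, at 2 loci. Pcdh15 encodes a component of the tip links of inner ear hair cells, and with a body of 1550.4 kb on chromosome 10 it is the longest member. Pool 2 had 4 peaks in its introns against 0.842 expected in that pool, while pools 1 and 3 had 0 against 0.386 and 0.745. Over the 3 pools the 4 peaks compare with 1.97 expected (exact Poisson 95% interval of the count 1.09 to 10.2). That interval includes the expectation over the 3 pools and lies above that of pool 2 alone, at the locus with the highest count of all 36. The interval was not adjusted for this choice of locus and pool, so no excess in pool 2 is drawn from it. The scores were 65.74 (rank 704 of 1032) at chr10:72634277-72634731, 51.14 (rank 1016) at chr10:72881224-72881761, 83.71 (rank 295) at chr10:73911124-73911766 and 132.45 (rank 55) at chr10:73955508-73955859. The last was the best ranked member peak of pool 2.

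The IgG peak of Pcdh15, at chr10:73923501-73924064 with a score of 105.61 (rank 25 of 1007), lay between the last 2 of these, 12.3 kb from one and 31.9 kb from the other. It was the best ranked member peak of IgG. The other protocadherin of this group with a PAX6 peak was Pcdh8, the paraxial protocadherin, 57.0 kb upstream of its body in pool 1 with a score of 67.66 (rank 122 of 491). The start of Gm10845 was nearer, at 40.9 kb.

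The clustered Pcdh locus on chromosome 18, from 37089939 to 38001527, had 1 PAX6 peak against 0.825 expected and no IgG peak. Its genes are expressed in different combinations by single neurons, through a choice of promoters in front of variable exons. The pool 2 peak from 37851085 to 37851674 had a score of 59.24 (rank 922 of 1032) and lay in an intron. It was 17.4 kb from the nearest annotated start of the locus, that of Pcdhgc5. Later annotations hold more of these genes than the 24 records used. The intron and the distance therefore hold for the annotated exons and starts only. The GC content of the window of this peak was 66.0%, against a median of 42.7% over the other peaks of pool 2.

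**Figure D4:**
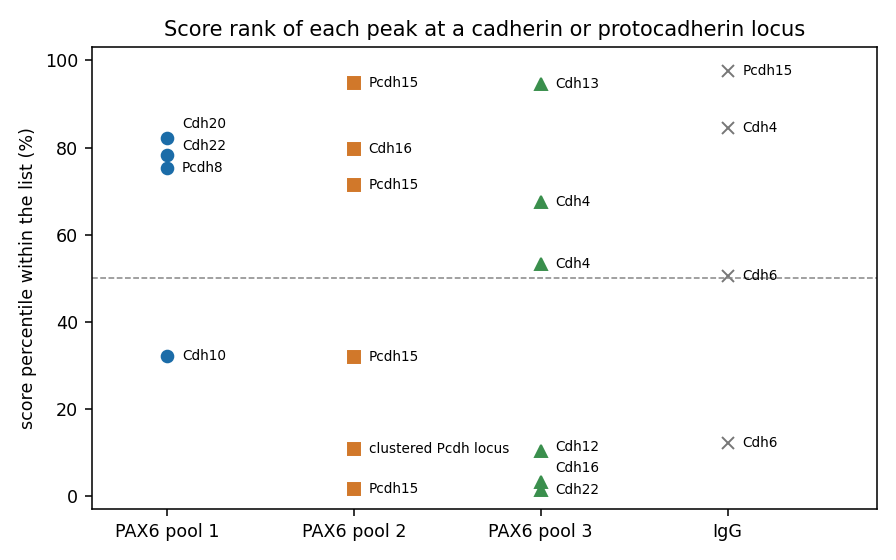
Score percentile within its own list (vertical axis, percent, 100 being the highest score) for each of the 16 PAX6 and 4 IgG peaks at member loci, by list. The dashed line marks the middle of a list; PAX6 peaks run from 1.38 to 94.8, so that they are spread over the whole range.

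By score the PAX6 member peaks were spread over the lists, with percentiles from 1.38 at Cdh22 in pool 3 to 94.8 at Pcdh15 in pool 2 and a median of 60.4. By pool the median percentile was 76.9 in pool 1, 51.7 in pool 2 and 31.8 in pool 3, and it was 67.6 for IgG. Scores of at least 70 belonged to 7 of the 16 and scores of at least 100 to 4, at Cdh4, Cdh13 and Pcdh15. With PAX6 peaks limited to those scores, the ratio to the number expected from window length was 1.01 and 1.09. It was 1.07 without a limit, so high scores were not more frequent at these loci than length gives.

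No PAX6 peak was assigned to 26 of the 36 loci, and 25 had no peak of any list, since Cdh6 had IgG peaks. From these 26 loci the nearest PAX6 peak lay 127.8 to 2357.6 kb away, with a median of 627.8 kb. At 3 of them (Cdh5, Cdh26 and Pcdh10) it lay at 127.8, 131.2 and 146.4 kb, and at 6 (Cdh7, Cdh19, Cdh24, Pcdh7, Pcdh9 and Pcdh11x) over 1 Mb. At the others, such as Cdh8, Cdh9, Pcdh1, Pcdh12, Pcdh17, Pcdh18, Pcdh19 and Pcdh20, it lay in between. The longest of the loci without a peak were Cdh18, with a body of 925.4 kb and 0.986 peaks expected, and Pcdh9, with 873.2 kb and 0.900 expected. A list holds only peaks above the threshold of the caller, so a locus without a peak is one where none was called at the depth of these libraries.

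CA or TG runs of at least 20 bp stood in 6 of the 16 windows of PAX6 member peaks (37.5%, exact binomial 95% interval 15.2 to 64.6) and in 48.3% of the 2203 windows of the other PAX6 peaks. The difference was −10.8 percentage points (odds ratio 0.642, 0.191 to 1.96, Fisher's exact test, two-sided, p = 0.458), so member peaks were not told apart from the rest. Such runs were in 3 of 4 IgG member peaks, in 53.8% of all IgG peaks and in 2.90% of 51105 windows spaced evenly over the genome. By pool they stood in 2 of 4 member peaks of pool 1 (Cdh20 and Pcdh8), in 0 of 6 of pool 2 (limit of a count of 0, 50.0%) and in 4 of 6 of pool 3 (Cdh12, Cdh22, Cdh16 and Cdh4). In the other peaks of the same pools the shares were 42.5%, 50.2% and 49.6%. Of the 6 member peaks of pool 2, 4 lie at Pcdh15. The counts by pool are small, and their differences from the other peaks were not tested.

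Repeats broken by single bases escape this count. With windows counted when short runs of at least 6 bp covered at least 20% of them, a measure chosen after the sequences were seen, the shares were 50.0% for PAX6 member peaks (8 of 16) and 54.4% for other PAX6 peaks (Fisher's exact test, two-sided, p = 0.804). They were 100.0% for IgG member peaks (4 of 4), 68.3% for all IgG peaks and 0.730% for the genome windows.

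**Figure D5:**
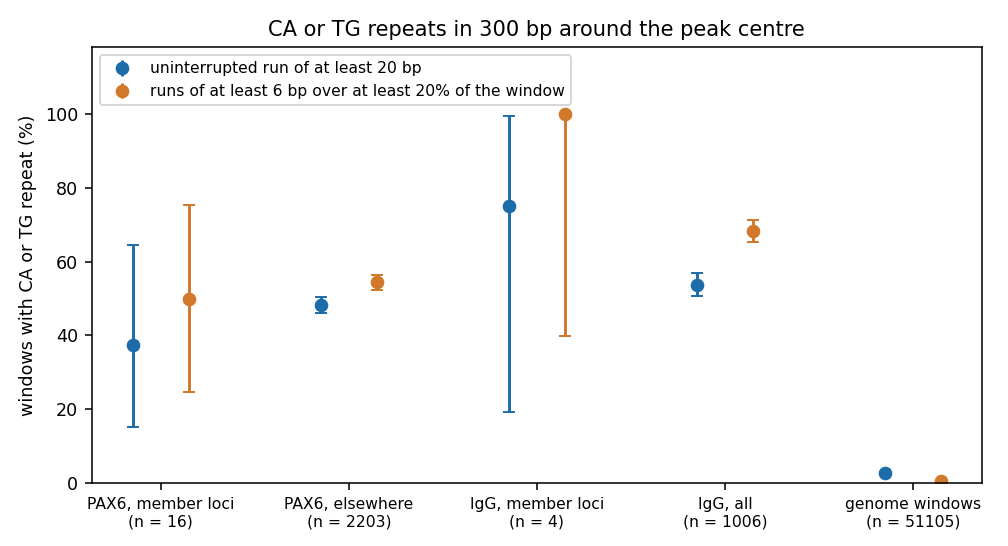
Share of 300 bp windows (vertical axis, percent) with a CA or TG repeat by 2 measures, for PAX6 and IgG peaks at member loci, the other peaks, and windows spaced evenly over the genome. Bars are exact binomial 95% intervals; the shares at member loci have wide intervals that overlap those of the other peaks, and the genome windows lie at 2.90% and 0.730%.

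PAX6 binds DNA through a paired domain and a homeodomain. A pair of homeodomain core sites, TAAT followed after 3 bases by ATTA (the same on both strands), was in 0 of the 16 windows, and so was TTCACGC, taken as a core of paired domain sites and searched on both strands. A count of 0 of 16 allows up to 18.8%. The shares were 0.726% and 0.363% in the other PAX6 peaks, 0.199% and 0.795% in IgG peaks and 1.05% and 0.434% in the genome windows, so 16 windows were too few to show either.

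Genes that work with cadherins were counted in the same way. Of 12 catenins, plakophilins and vinculin, which link cadherins to the cytoskeleton, 2 had a PAX6 peak (16.7%), against 17.5% of all protein-coding genes. They held 4 peaks against 6.26 expected (ratio 0.639, exact Poisson 95% interval 0.174 to 1.64), and IgG had 5 against 2.84 (1.76, 0.572 to 4.11). The genes with a PAX6 peak were Ctnna2 and Ctnna3, the α-catenins of neurons and of heart and testis, both over 1 Mb long. Of 25 other members of the superfamily (Fat, Dchs, Celsr, calsyntenin, Cdhr and desmosomal genes), 8 had a PAX6 peak (32.0%), against the same 17.5%, but 4 of the 8 are the neighbours Dsc1, Dsc2, Dsc3 and Dsg1c. The list held 8 peaks against 5.15 expected (ratio 1.55, exact Poisson 95% interval 0.671 to 3.06), and IgG had 2 against 2.47 (0.810, 0.0981 to 2.93). Fat2, a large cadherin known from cerebellar granule cells, had 1 peak of each pool and none of IgG, a gene named after its values were seen. The pool 3 peak, with a score of 159.13 (rank 90 of 724), lay 1.56 kb upstream of the Fat2 body, the pool 1 peak (60.34, rank 274 of 491) 22.7 kb upstream and the pool 2 peak (170.85, rank 32 of 1032) 76.7 kb downstream. They did not overlap. Peaks of at least 2 pools lay at 1.56% of all protein-coding genes. The share with peaks of all 3 pools and the count expected at Fat2 are not given here. No shared binding is therefore read from these peaks.

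Over the whole series the lists held 491, 1032 and 724 PAX6 peaks in pools 1, 2 and 3 and 1007 IgG peaks, of which 489, 1018, 712 and 1006 lay on chromosomes 1 to 19 and X. Of the PAX6 peaks 82 overlapped an IgG peak, none of them at a member locus. The depth behind each list cannot be read from it. Expression values are not in them either, so which of these genes the cultured cells express was not measured here.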

How the data were processed

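PAX6 ChIP-seq peaks of 3 pools and of IgG were analysed as 4 lists. The authors merged the libraries of a pool, used Bowtie for alignment to mm9 and MACS for peak calling (for neither is a version given in the sources used here). Per the deposited files, each peak has a position on mm9 and a score. The score is the authors' MACS p-value, read as minus 10 times its log10 from the study's own table heading, and was used as deposited. Input libraries, reads and signal were not used here, and the depth behind each list is not known from the files.

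Genes were taken from GENCODE M1, and peaks outside chromosomes 1 to 19 and X were left out. Members, gene lists and tests were chosen with earlier results of these data known. Expected counts were computed exactly from the length of the windows on the chromosome of each peak. Shares were compared by Fisher's exact test, two-sided, at a threshold of 0.05, with peaks as units and intervals that cover counting error only. The limit of a share of 0 is 3 counts of the total. Sequences of 300 bp around peak centres came from mm9, and genome windows were spaced 50 kb apart. The sequences of some peaks covered by the rule below are not reported here.

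Genes named with values were loci with peaks of at least 2 pools or at least 3 PAX6 peaks, with a start within 10 kb of a PAX6 peak or a region in 2 lists, the best ranked member peak of each list, and Cdh1, Cdh2, Cdh4, Cdh5, Cdh6, Cdh11, Cdh19 and the clustered locus. The other members, the genes near peaks and those of the partner lists were named with values after these were seen, to account for every locus. Alternatives covered the distance limit, the score, IgG-overlapping peaks, each pool left out, the overlap and the repeat measure. The computation of expected counts was tested on simulated data. The tools were samtools 1.23.1, pysam 0.24.0 and scipy 1.17.1 with numpy 2.4.6 on Python 3.11.15, and matplotlib 3.10.9.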

Additional observations from a re-analysis of the deposited data

How the results depend on the processing

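Of 39 Fisher's exact tests of PAX6 against IgG over all settings, 0 had an unadjusted p under 0.05 and the lowest p was 0.167. The share difference of the 3 pools was above 0 under 9 of 11 alternatives. With scores of at least 70 in every list it was 0 for the 3 pools and -0.0663 points in pool 3, and 5 loci had a PAX6 peak. At 100 or more, which left 35 IgG peaks, it was -2.04 points for the 3 pools, -2.86 in pool 1, -1.97 in pool 2 and -2.05 in pool 3. At that limit the ratio to expectation was 0 in pool 1 and 4.25 for IgG, from 1 peak (0.975 at 70 or more, from 2 peaks), and 3 loci had a PAX6 peak. In pool 1 the difference was -0.0994 points at a distance limit of 0 or 10 kb and -0.0937 at 50 kb, with a ratio of 0 at 0 and at 10 kb, since no peak of pool 1 lay in a body, and of 0.376 at 50 kb. At 0 and at 10 kb the IgG ratio was 0.222 and 0.208, and 5 loci had a PAX6 peak. With runs of at least 30 bp, the share of repeats at member peaks minus other PAX6 peaks was 2.23 points (Fisher's exact test, p = 1.00), and with the whole peak searched it was -17.8 points (Fisher's exact test, p = 0.207). The cause of the other changes was not tested. With each pool left out in turn, the difference ranged from 0.266 to 0.435 points, the ratio of the 3 pools from 1.03 to 1.17 and the loci with a PAX6 peak from 7 to 8. No paired analysis was possible because peaks were called on merged libraries and the lists carry no replicate numbers.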
